A study of Mus musculus with 2 samples.

Results

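The genes described here are the mouse families best known for guiding growing axons: the semaphorins and their plexin and neuropilin receptors, the ephrins and Eph receptors, the netrins and Unc5 receptors, and the Slits and Robo receptors. They were chosen by a rule that uses gene symbols and no measured value, although the families were picked with earlier results of these data known. All 68 protein-coding genes with such symbols were taken as members from the 21887 protein-coding genes of the reference table. Foxp4 is a forkhead transcription factor, and DNA pulled down with a Foxp4 antibody was sequenced to find where it was bound (ChIP-seq). Of the 3317 Foxp4 peaks, 17 had a member as the gene with the nearest start site, and these 17 lay at 9 genes. They were Sema3c, Slit3 and Efna5 with 3 peaks each, Sema3d and Slit2 with 2 each, and Sema3e, Sema4c, Sema6d and Plxnc1 with 1 each.

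The series held 2 libraries, 1 of Foxp4-bound DNA and 1 of input DNA, from the same kind of cells: the stromal vascular fraction of inguinal white fat of C57BL/6 mice, a mixture of non-fat cells that includes fat cell progenitors. Both were labelled as cells differentiated in vitro for 2 days. Per the labels, the cells grew for 3 days in medium with 20% serum and were then induced for 48 h in 10% serum with a cocktail for beige fat cells: the thyroid hormone T3 at 50 nM, troglitazone at 5 µM, insulin at 5 µg/ml, dexamethasone at 1 µM and isobutylmethylxanthine at 0.5 mM. Neither the age and sex of the mice nor a line or clone is given in the labels, and no genotype other than the strain. The input library was not analysed here. With 1 ChIP library there is no replicate error and no test was made. The depth of sequencing is unknown. Intervals are exact 95% binomial or Poisson intervals and cover counting error over genes, peaks or start-site windows. A peak list holds no expression, so the labelled cell type could not be checked. For orientation, 9.09% of protein-coding genes outside the families had a nearest peak. Such a peak was present at 6 of 10 progenitor and fibroblast markers (interval 26.2 to 87.8%), 2 of 8 endothelial markers (3.19 to 65.1%) and 2 of 10 Schwann and neuronal markers (2.52 to 55.6%).

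Guidance cues act as ligands that attract or repel a cell process, and each family has its own receptors. Secreted class 3 semaphorins bind neuropilins, which signal through plexins, whereas most other semaphorins are bound to the membrane and bind plexins directly. Ephrins are membrane-bound ligands of the Eph receptor tyrosine kinases, Slits are secreted ligands of Robo receptors, and netrins act through Dcc and the Unc5 receptors. Outside the nervous system the same families shape blood vessels and organs, and in fat a fragment of Slit2 released by beige cells is known to promote heat production.

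Start sites are where the reference sequences could be examined. RefSeq windows (build GRCm38.p6, which mm10 is made from) cover 250 bases before to 50 after a start site, and 75 such windows matched 59 of the 68 members, including all 9 members with a peak. None of the 75 windows overlapped a peak. The 250 bases before the start of Efna5 are shown because an upstream peak lay 1201 bp beyond the window. A pair of Sema4c windows lay closer to the Sema4c peak, at 278 and 1102 bp, but within the annotated Sema4c gene, and are not printed. Capitals mark CG pairs, of which there were 32. The stretch before the start of Sema3e is shown because it was the 1 window among the members with a peak that held a match to TGTTTNC, a wide form of the core that forkhead factors bind. Capitals mark that match, which reads on the opposite strand.
Efna5 (chr17:62881318-62881567, minus strand): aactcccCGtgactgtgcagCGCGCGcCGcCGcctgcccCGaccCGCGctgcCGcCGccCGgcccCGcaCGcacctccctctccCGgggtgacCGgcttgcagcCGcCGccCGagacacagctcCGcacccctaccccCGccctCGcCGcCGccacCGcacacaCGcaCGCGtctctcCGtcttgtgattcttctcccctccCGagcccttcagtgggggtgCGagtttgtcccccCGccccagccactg
Sema3e (chr5:14025026-14025275, plus strand): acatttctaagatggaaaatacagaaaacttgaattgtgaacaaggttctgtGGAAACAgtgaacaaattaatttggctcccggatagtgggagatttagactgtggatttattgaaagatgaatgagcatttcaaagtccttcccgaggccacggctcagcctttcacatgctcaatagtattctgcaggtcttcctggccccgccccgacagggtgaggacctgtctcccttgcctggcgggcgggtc

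Searched on both strands, the forkhead core TGTTTAC was found in 0 of the 75 member windows, which allows a share of up to 4.8%, against 3.65% of all 32851 windows of the same length. The wider form TGTTTNC, which includes every TGTTTAC, was found in 6 member windows (8.0%, interval 2.99 to 16.6), against 20.5% of all windows. Those 6 windows belonged to Sema3e, Efna2, Epha7, Ephb4 and, with 2 windows, Sema4d. The 75 windows come from 59 genes and some overlap, so they are not independent, which these intervals ignore. Member windows were richer in G and C than windows in general, with a median of 64.3% against 52.7% and a median of 19 CG pairs against 7. The windows compared thus differ in base composition, whose part in the motif shares was not tested. The reference given here has no sequence for the peaks themselves, so the motif was looked for at start sites and not at the bound DNA.

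By nearest start site, 9 of 68 members had a peak (13.2%, interval 6.23 to 23.6), against 9.09% of the 21819 other protein-coding genes. The interval of the members includes the share of the other genes. Within 3 kb of a start site the members with a peak were Sema4c and Efna5, 2 of 68 (2.94%, interval 0.358 to 10.2), against 2.08% of other genes. As sets, then, the families had shares near the background under both assignments, and what follows describes where the individual sites lay.

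The families are small, and differences between them were not tested. The bar chart by family shows the number of members with a nearest peak, to be set against 9.09% of other protein-coding genes. Among the ligands it was 3 of 7 class 3 semaphorins, 1 of 6 class 4 semaphorins, 1 of 7 semaphorins of classes 5 to 7, 1 of 8 ephrins, 0 of 4 netrins and 2 of 3 Slits. Among the receptors it was 1 of 9 plexins, 0 of 2 neuropilins, 0 of 14 Eph receptors, 0 of 4 Unc5 receptors and 0 of 4 Robo receptors. For the Eph receptors a count of 0 of 14 allows a share of up to 23.2%. The intervals of the class 3 semaphorins (9.9 to 81.6%) and the Slits (9.43 to 99.2%) overlap that range. Gene territories, defined below, had medians of 761.4 kb for Slits and 228.1 kb for class 3 semaphorins, against 42.6 kb for other protein-coding genes. In the quartile of largest territories 19.2% of other genes had a nearest peak, a share inside both intervals. Taken by role, 8 of 35 ligand genes (22.9%, interval 10.4 to 40.1) and 1 of 33 receptor genes (3.03%, interval 0.0767 to 15.8) had one. The split by role was made after the peaks were seen, and membrane-bound semaphorins and ephrins, counted here as ligands, can also act as receptors. The split was smaller when peaks were counted inside gene bodies, with 5 of 35 ligand genes and 3 of 33 receptor genes. By that measure 5.34% of other protein-coding genes held a peak. Whether the roles differ was not tested.

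**Figure D1:**
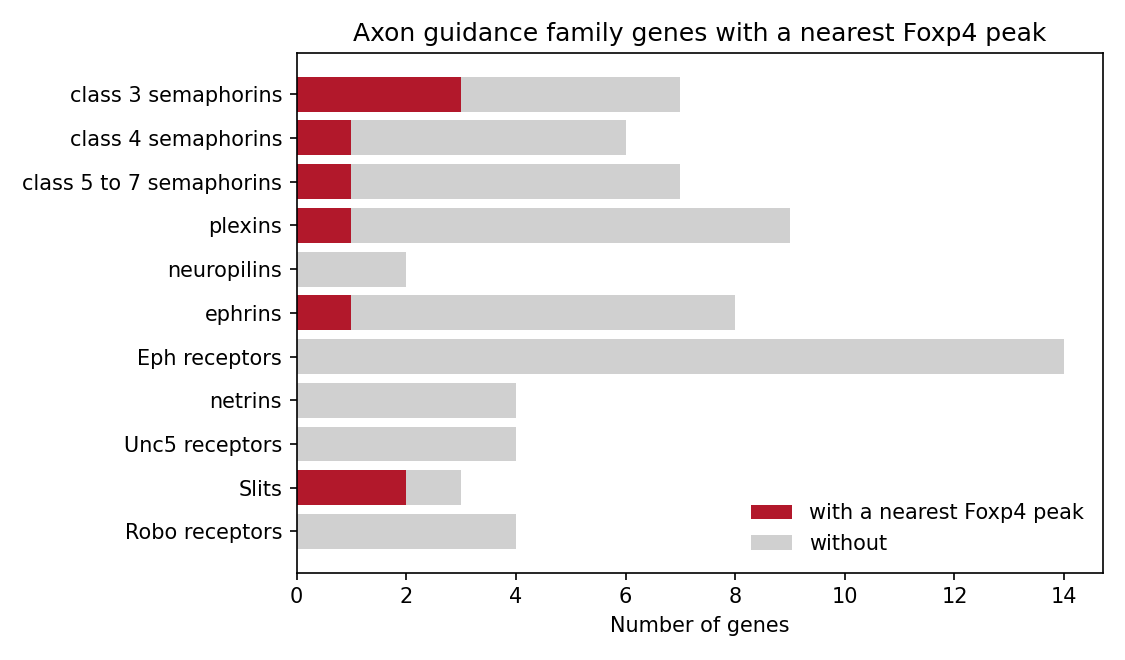
Number of member genes in each family (x axis) with a nearest Foxp4 peak (red) and without one (grey). Class 3 semaphorins and Slits account for 5 of the 9 genes with a peak, and none of the 14 Eph receptor genes or 4 Robo genes had one.

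Sema3d, a secreted semaphorin gene with roles in heart and vessel development, carried the highest score of all member peaks. That score, 358, was rank 93 of the 3317 peaks, above 97.2% of them (chromosome 5, 12639312 to 12640055). The score is the value that the authors' processing gave each peak, of undefined meaning, and it ranks peaks within this list only. The peak was intergenic, lay on a remnant of an L1 retrotransposon (L1MA8), 256.5 kb downstream of the start site and 50.7 kb outside the gene body. A second Sema3d peak of score 102 lay 164.0 kb upstream on a run of A (chromosome 5, 12218925 to 12219359). Both sites of Sema3d were thus distal, on either side of the gene.

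Sema3c, which encodes another secreted semaphorin, had a pair of upstream sites. They had scores of 90 (chromosome 5, 17556837 to 17557302) and 30 (chromosome 5, 17555997 to 17556547), at 17.7 and 18.5 kb before the start site, with midpoints 797 bp apart. The third Sema3c peak had a score of 31 and lay in intron 12 of 17, 129.9 kb downstream of the start (chromosome 5, 17704493 to 17704878). The pair counts as 1 site when peaks within 10 kb of each other are joined. Sema3e, whose product binds Plexin-D1 without a neuropilin and guides vessels, had 1 intergenic peak of score 94, 32.2 kb upstream (chromosome 5, 13992882 to 13993219). Scores at these genes thus ran from 30 for the lower-scoring of the Sema3c pair to 358 at Sema3d.

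Sema3a, Sema3c, Sema3d and Sema3e all lie on chromosome 5, and all 6 peaks of the class 3 semaphorins were there. From the start of Sema3d to the end of Sema3c (12383161 to 17730268) there were 12 peaks in 5.35 Mb, or 2.24 per Mb (Poisson interval 1.16 to 3.92). The rest of the chromosome carried 178 peaks, 1.22 per Mb (interval 1.04 to 1.41), and the 2 intervals overlap. This span was chosen after the peaks were seen. Of its 12 peaks, 5 were nearest to Sema3c, Sema3d or Sema3e, 5 to Hgf, the gene of hepatocyte growth factor, and 2 to Speer4f1. Sema3a, the gene of the prototype collapsing semaphorin, lies between Sema3d and Sema3e and had none, the closest lying 389.6 kb from its body. The remaining class 3 genes, Sema3b, Sema3f and Sema3g, lie on other chromosomes and had no nearest peak.

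Among membrane-bound semaphorins, Sema4c had the 1 member peak inside a transcribed exon. It covered part of the 5' UTR in exon 2 of 16, 736 bp downstream of the nearest start site (chromosome 1, 36556412 to 36557230). At 819 bp it was the widest member peak, and its score of 23 was the lowest of the 17, above 5.34% of all peaks. Sema4c encodes a ligand of Plexin-B2. Sema6d, whose product signals through class A plexins, had an intergenic peak of score 129, 118.8 kb downstream of the nearest start site (chromosome 2, 124772081 to 124772602). This was the second highest score among the members, at rank 562. No nearest peak was found at Sema4a, Sema4b, Sema4d, Sema4f, Sema4g, Sema5a, Sema5b, Sema6a, Sema6b, Sema6c or Sema7a.

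Efna5, which encodes the ligand ephrin-A5, had 3 sites with scores of 69, 72 and 76. The first lay 1.67 kb upstream of the start site, was annotated as a CpG island and is the site closest to the Efna5 stretch printed above (chromosome 17, 62882768 to 62883203). The others were intergenic, at 103.7 kb upstream on an LTR element (score 76, chromosome 17, 62984846 to 62985279) and at 1291.8 kb downstream (score 72, chromosome 17, 61589332 to 61589621). The last of these was the most distant of all member peaks, and its assignment to Efna5 rests on the start site alone being nearest. The scores of the 3 sites were close to one another and to the median of all peaks, 65, although the distances ran from 1.67 to 1291.8 kb. The other ephrin genes, Efna1, Efna2, Efna3, Efna4, Efnb1, Efnb2 and Efnb3, had no nearest peak.

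Slit2 and Slit3 encode large secreted ligands. At Slit3 there were peaks of score 69 in intron 1 of 35 on a (TG)n repeat, 45.8 kb downstream of the start (chromosome 11, 35167064 to 35167462), of score 41 in intron 4 on an LTR element at 210.1 kb (chromosome 11, 35331372 to 35331783), and of score 43 at 138.2 kb upstream (chromosome 11, 34983069 to 34983422). Slit3 was the 1 member with more than 1 peak inside its own body. At Slit2 both peaks were upstream and intergenic, with scores of 69 at 62.0 kb (chromosome 5, 47920835 to 47921519) and 72 at 1002.5 kb (chromosome 5, 46980493 to 46980790). The more distant Slit2 peak lay on a (CAAA)n repeat. Slit1 had no nearest peak.

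Plxnc1, the receptor gene of the membrane-anchored semaphorin Sema7a, was the 1 receptor with a nearest peak. It lay in intron 21 of 30 on a DNA transposon remnant, 120.1 kb downstream of the start, with a score of 47 (chromosome 10, 94824289 to 94824615). The other plexin genes Plxna1, Plxna2, Plxna3, Plxna4, Plxnb1, Plxnb2, Plxnb3 and Plxnd1 had none, and neither did Nrp1 or Nrp2. The same held for Epha1 to Epha8, Epha10, Ephb1, Ephb2, Ephb3, Ephb4 and Ephb6, for Unc5a to Unc5d, for Robo1 to Robo4 and for the netrin genes Ntn1, Ntn3, Ntn4 and Ntn5.

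**Figure D2:**
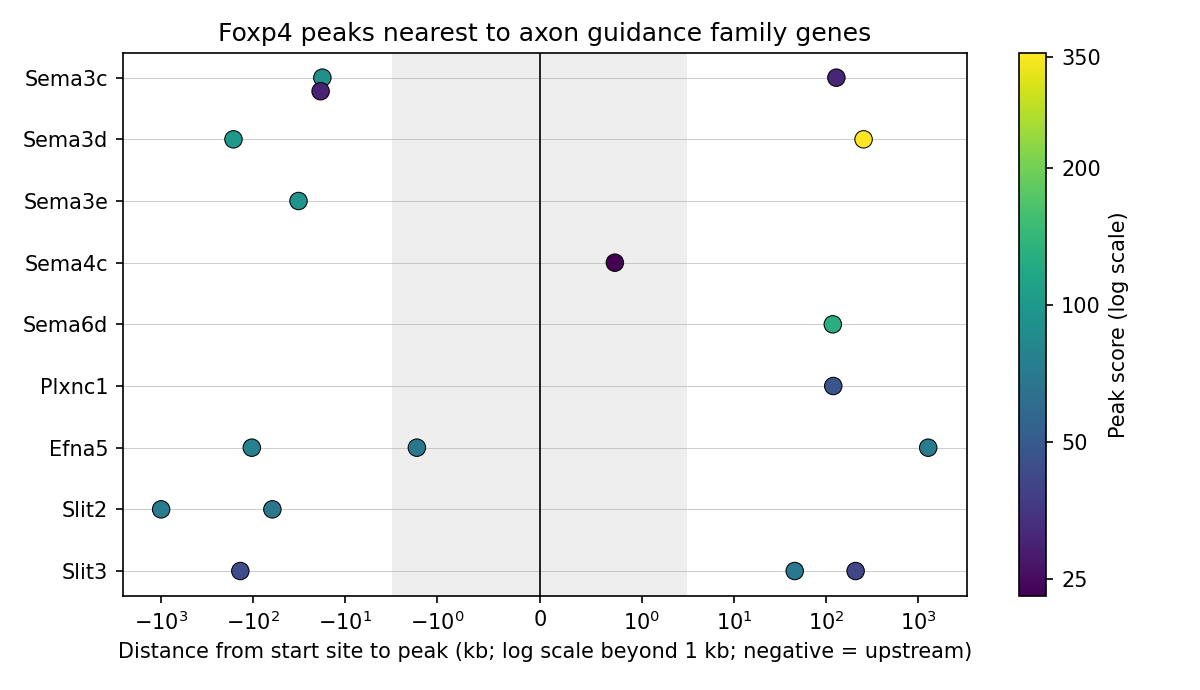
Each point is 1 of the 17 peaks nearest to a member, placed by its signed distance from the start site (x axis, kb, log scale beyond 1 kb, upstream negative) and coloured by its score (log scale), with the window of 3 kb on either side shaded. The peaks of Efna5 at 1.67 kb and Sema4c at 0.736 kb lie in the window, the other 15 outside it, and the lower Sema3c point is set off to show both peaks of the pair.

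Assignment by the nearest start site passes over peaks that lie inside a member but closer to another start site. Counted by peak midpoint, 9 peaks lay inside the bodies of 8 members, and 4 of these 9 were named for another gene. Plxnd1, the vascular plexin gene and receptor of Sema3e, held a peak of score 80 in intron 29 of 35 (chromosome 6, 115959247 to 115959619), which the file assigns to H1foo. Ntn4, a netrin gene, held one of score 74 in intron 2 of 9 (chromosome 10, 93661230 to 93661712), assigned to Gm8580. In Nrp1, the co-receptor gene of class 3 semaphorins, a peak of score 43 lay in intron 11 of 15 (chromosome 8, 128484598 to 128484970), assigned to Mir1903. The Mir1903 start site was 125.5 kb away, and the Nrp1 start-site window ended 125476 bp from the peak. Both start sites were thus at nearly the same distance, and a small difference decided the name. Sema6d held one of score 45 in intron 3 of 20 (chromosome 2, 124322718 to 124323043), assigned to 4930583P06Rik. These 4 peaks add Plxnd1, Ntn4 and Nrp1 to the members with a site.

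By that count 8 of 68 members (11.8%, interval 5.22 to 21.9) and 5.34% of the other genes held a site. Their bodies are long, with a median of 45.2 kb against 17.1 kb. Per length the order was the reverse, with 0.746 peak midpoints per Mb of member body (Poisson interval 0.341 to 1.42) against 1.42 per Mb (1.34 to 1.49) in the other genes. With 20 kb added on each side of the body, 12 members (17.6%, interval 9.47 to 28.8) held a peak, against 11.1% of other genes. This wider zone adds Efna5 and reaches peaks at Efna2 (score 25, 11.9 kb from the body, at the promoter of Cirbp), Epha1 (score 23, 8.91 kb, at the promoter of Zyx) and Sema7a (score 68, 10.5 kb). A second peak near Ntn4 (score 89) lay 3.64 kb from its body. In all, 15 members had a nearest peak or a peak within 20 kb of the body, and 53 had neither. This combined count was not made for other genes, so it has no background share and does not show a raised share.

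Several members without a nearest peak lay far from any site. The same distance was not computed for other genes, so it is not shown to be particular to the members. Over the 59 such members the distance from the gene body to the closest peak had a median of 324.7 kb and reached 4467.8 kb at Epha5. For Robo3 and Robo4, which lie side by side on chromosome 9, it was 3141.9 and 3161.3 kb, and for Robo1 1697.9 kb. Sema5a had a peak of score 238 at 22.7 kb, assigned to Gm41289, just outside the zone of 20 kb.

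How much sequence a gene dominates differs widely among the members. Gene territory is taken here as the gene body and the gaps up to the midpoints to the neighbouring gene bodies. Its median was 96.9 kb for the members and 42.6 kb for other protein-coding genes. By family the median ran from 30.8 kb for ephrins to 761.4 kb for Slits and 933.9 kb for Robo receptors. Of the 68 members, 34 fell in the quartile of largest territories, above 103.6 kb. In that quartile 8 of 34 members had a nearest peak (23.5%, interval 10.7 to 41.2), against 19.2% of the other genes. In the 3 smaller quartiles it was 1 of 9 (other genes 3.24%), 0 of 13 (4.89%) and 0 of 12 (9.1%), from small to large. Sema4c, with a territory of 13.8 kb, was the 1 member with a peak in the lower 3 quartiles. Among the tenth of genes with territories above 251.2 kb, 6 of 23 members (26.1%, interval 10.2 to 48.4) and 22.5% of other genes had one. The member intervals include the share of the other genes in each of these strata.

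**Figure D3:**
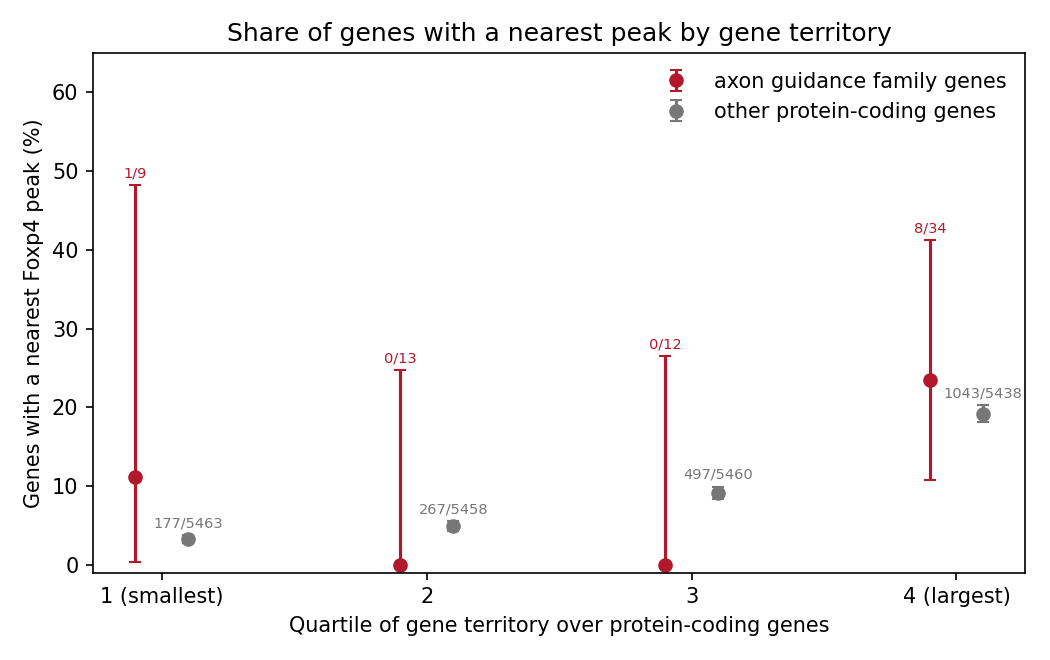
Percentage of genes with a nearest Foxp4 peak (y axis) in each quartile of gene territory (x axis), for the members (red) and all other protein-coding genes (grey), with exact 95% binomial intervals as bars and the counts above them. The share of other genes goes from 3.24% to 19.2% across the quartiles, and 8 of the 9 members with a peak are in the largest quartile.

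Members with large territories did not all have a nearest peak. Of the 34 members in the largest quartile, 17 were ligand genes, of which 7 had a nearest peak (41.2%, interval 18.4 to 67.1). The other 17 were receptor genes, of which 1 did (5.88%, interval 0.149 to 28.7). The share of other protein-coding genes in that quartile, 19.2%, lies inside both intervals. As said above, the split by role was made after the peaks were seen, was smaller inside gene bodies and was not tested. Nrp1 and Ntn4, counted here as without, held peaks inside their bodies. Epha6, Robo2, Robo1 and Epha5 have territories of 2030.2, 2024.2, 1822.4 and 1509.9 kb and none had a nearest peak, while Efna5 with 2149.7 kb had 3 and Sema6d with 1418.2 kb had 1. Members with similar territories thus had from 0 to 3 nearest peaks.

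Member peaks lay farther from start sites than other peaks. Their median distance was 118.8 kb (quartiles 32.2 to 164.0), against 27.2 kb (7.03 to 74.7) for the 2614 peaks nearest to other protein-coding genes. More than 100 kb away lay 10 of the 17 (58.8%, interval 32.9 to 81.6), against 19.3% of the others. Within the quartile of largest territories the medians were 119.4 kb for the 16 member peaks and 52.7 kb for the 1532 others, with 62.5% (interval 35.4 to 84.8) against 30.1% beyond 100 kb. Genes of that quartile still differ in territory, and the part of this in the distances was not tested. Several of the 17 peaks share a gene, so they are not independent, and no test was made. Intergenic positions made up 12 of 17 member peaks (70.6%, interval 44.0 to 89.7) and 48.0% of the others, introns 4 of 17 and 39.6%. None of the member peaks was classed by the file as a promoter, a class of 9.56% of the other peaks.

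Scores of member peaks were like those of peaks in general. Their median was 69 (quartiles 43 to 90, range 23 to 358), against 64.5 (41 to 103, range 13 to 2569) for the other protein-coding genes. A score of at least 100 was reached by 3 of 17, both Sema3d peaks among them and the Sema6d peak, against 26.8% of the others. The plot of cumulative scores shows the curves crossing near the middle of the range. An annotated repeat lay at 7 of 17 member peaks (41.2%, interval 18.4 to 67.1), against 23.6% of the others: 2 at Sema3d, 2 at Slit3 and 1 each at Slit2, Efna5 and Plxnc1. Simple repeats accounted for 3 of them, at Sema3d, Slit2 and Slit3 (17.6%, interval 3.8 to 43.4, against 8.57%). The handling of reads that align to more than 1 place is not given here, and its part in these sites was not tested.

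**Figure D4:**
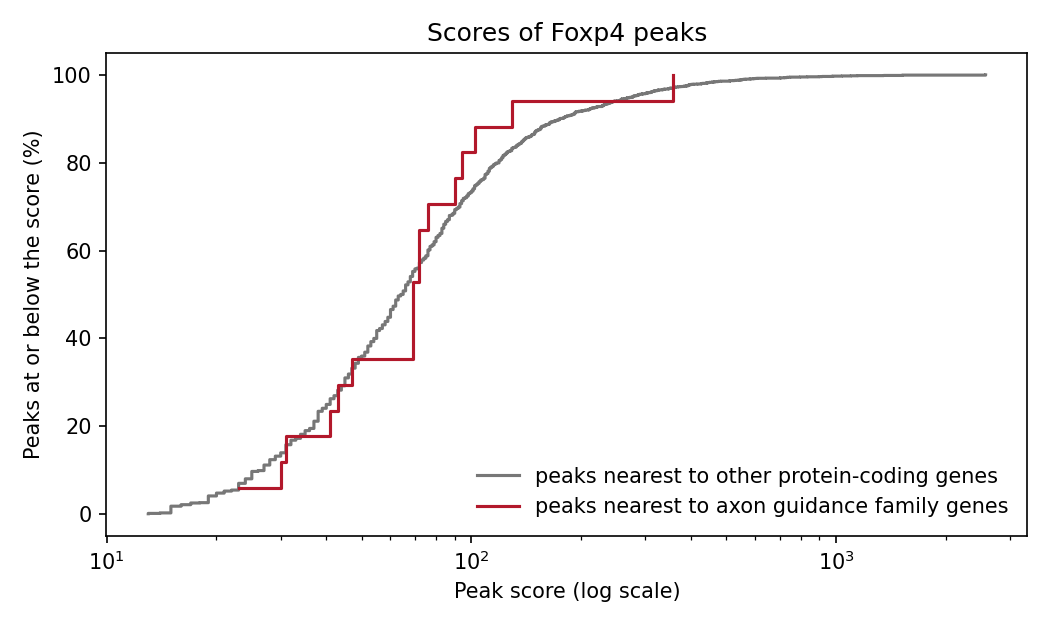
Cumulative percentage of peaks (y axis) at or below a given score (x axis, log scale) for the 17 peaks nearest to members (red) and the 2614 nearest to other protein-coding genes (grey). The curves lie close together, with medians of 69 and 64.5.

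Members with a peak often had more than 1. It was 5 of 9 (55.6%) with at least 2 and 3 of 9 (33.3%) with 3, against 20.9% and 6.6% of the 1984 other genes with a peak. In the quartile of largest territories the shares were 62.5% and 37.5% of 8 members, against 29.4% and 10.6% of 1043 other genes. Genes of that quartile still differ in territory, and the median of the 9 members with a peak was 703.9 kb. Sema3c reached 3 peaks with a pair only 797 bp apart. The counts are small, and the difference was not tested. Apart from the Sema3c pair, successive peaks of 1 member lay between 102.1 kb (Efna5) and 1293.5 kb (Efna5) apart.

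Partners and effectors of the same pathways lie outside the families counted above. Of 61 such genes, 17 had a nearest peak (27.9%, interval 17.1 to 40.8) and 0 had one within 3 kb, which allows a share of up to 5.87%. The shares of the other protein-coding genes given above were 9.09% and 2.08%, so the interval of the nearest count lies above the first. These genes have large territories, with a median of 152.8 kb against 42.6 kb for the other protein-coding genes. In the quartile of largest territories 13 of 44 had a nearest peak (29.5%, interval 16.8 to 45.2). That interval includes the 19.2% of other genes given above. By class it was 2 of 8 co-receptors and adhesion molecules, 3 of 8 other ligands and 12 of 45 intracellular effectors. The 5 highest scores were at Rnd1, whose product acts on plexins (898, 14.6 kb from the start site, on a (CAAA)n repeat), Limk1, a kinase of the actin regulator cofilin (539, 12.0 kb, on a (TTTG)n repeat), Mical2, an actin-oxidising enzyme of a family that binds plexins (303, 21.4 kb), Vav3 (156, 80.5 kb), and Rgma, a ligand of the netrin receptor neogenin (155, 12.5 kb). Of these 5, the Vav3 peak lay in intron 1 of the gene itself.

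Other families of surface proteins and ligands are set here against the same 9.09% of other protein-coding genes. A nearest peak was found at 5 of 30 integrin genes (16.7%, interval 5.64 to 34.7), 2 of 23 cadherins (8.7%, 1.07 to 28.0), 4 of 20 receptor type tyrosine phosphatases (20.0%, 5.73 to 43.7) and 7 of 29 Wnt and Frizzled genes (24.1%, 10.3 to 43.5). The interval of the Wnt and Frizzled genes lies above 9.09%, and those of the other 3 include it. The interval of the axon guidance families, 6.23 to 23.6%, overlaps all 4, and differences between the families were not tested. Median territories ran from 60.6 kb for Wnt and Frizzled genes to 476.1 kb for cadherins. In the quartile of largest territories, 19.2% of other genes had a nearest peak. There it was 4 of 13 integrins (interval 9.09 to 61.4%), 2 of 17 cadherins (1.46 to 36.4%) and 4 of 16 phosphatases (7.27 to 52.4%). For Wnt and Frizzled genes it was 3 of 3 (29.2 to 100%).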

How the data were processed

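ChIP-seq of Foxp4 in 1 library was analysed. Per the file headers, the authors annotated a narrowPeak file on mm10 with HOMER's annotatePeaks.pl. The submitters' processing notes list MACS2, Bowtie2, SAMtools, Picard and deepTools 3.3.0 with no role or setting. The deposited score of each peak is a whole number whose definition no header or label gives, so it only ranks peaks within the list, and distances to start sites are those the authors deposited.

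All 3317 peaks were kept and 1 line without a peak was dropped. Nearest genes are the file's. Gene types and positions came from a RefSeq table of GRCm38.p6, where 2459 of 2462 nearest genes were found by number. Counts, exact intervals and medians were computed with Python 3.11.15, pandas 2.3.3 and SciPy 1.17.1, and the counting was tested on simulated data. Members, lists and comparisons were chosen with earlier results of these data known. Every member with a peak is named, with the 5 highest-scoring pathway genes. Alternatives covered score, distance, window, repeats, joined peaks and gene bodies.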

Additional observations from a re-analysis of the deposited data

How the results depend on the processing

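Counts of members were small, so single peaks moved them. Members with a nearest peak numbered 9 with all peaks and stayed between 7 and 12 under 6 of the 7 alternatives. Counts are of 68 members, with shares of other protein-coding genes in brackets. With a score of at least 30 there were 8 (8.06%), and at or above the median score 7 (5.13%). Without peaks on simple repeats there were 9 (8.48%), and with joined peaks 9 (9.09%). With the body and 20 kb around it there were 12 (11.1%), and by overlap with the body 8 (5.7%). Within 50 kb of the start site 5 were left (6.76%), with 6 peaks. Of the 12 members with a peak in the body or 20 kb around it, 6 were among the original 9. With peaks at or above the median score 11 of the 17 member peaks remained. Assigned by an overlap of at least 1 bp with a member's body there were 9 peaks, a different set in which 4 were named for another gene. Of the 2 members with a peak within 3 kb, 1 was left with a score of at least 30, 1 with a score at or above the median (Efna5 in both) and 1 in a window of 1 kb (Sema4c). In the same order, 1.73%, 0.99% and 1.46% of other protein-coding genes had such a peak. The median score stayed between 45 and 70.5, inside its exact interval of 43 to 90. No paired analysis was possible because there is 1 ChIP library. Read depth is unknown, and differences between the families were not tested.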
